A study of Zea mays with 6 samples.

Results

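Zein genes are switched on in the maize endosperm, the storage tissue of the kernel, by a small set of transcription factors, and the transcripts of 8 gene models for these factors are described here in endosperm of wild-type (WT) plants and of the floury3 (fl3) mutant. The models were chosen by identifier and are o2 (GRMZM2G015534), OHP1 (GRMZM2G016150), OHP2 (GRMZM2G007063), pbf1 (GRMZM2G146283), a second model placed at pbf1 (GRMZM2G146267), NRP1/NAC128 (GRMZM2G062650), NAC130 (GRMZM2G154182) and o11 (GRMZM2G147685). They are 8 of 39448 gene identifiers in each library. All 8 had a mean of at least 1 FPKM (mapped fragments of a gene, scaled by gene length and by the library's total) over the libraries and so were among the 17272 genes tested. The study comprised 3 WT and 3 fl3 libraries of bulk endosperm RNA taken 10 days after pollination from field-grown plants, stated to be independent biological replicates. The floury3 mutation makes the kernel soft and opaque, and its gene encodes a PLATZ zinc-binding protein. The sources used here do not state the inbred background, the allele or its dosage.

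Zeins are the prolamins, the main storage proteins of the kernel, and they are packed into protein bodies of the endoplasmic reticulum. O2 (opaque2) is an endosperm bZIP factor that binds motifs with an ACGT core in alpha-zein promoters and also activates genes of amino acid and carbon metabolism. The O2-heterodimerizing proteins OHP1 and OHP2 are bZIP proteins that pair with O2 or with each other. PBF1 is a Dof zinc-finger protein that binds the prolamin box shared by zein promoters and interacts with O2 and the OHPs. NAC128 and NAC130 are closely related endosperm NAC factors that act on both zein and starch genes, and O11 is a bHLH factor placed upstream of o2 and pbf1.

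Transcripts of 5 of the 8 models were lower in fl3, 2 were higher and 1, OHP2, did not pass the test. The largest falls were those of pbf1, NRP1/NAC128 and o2, each to between 44.0% and 48.3% of the WT mean, while o11 and NAC130 fell to 70.3% and 73.1%. OHP1 and the second pbf1 model rose, OHP1 from a mean under 1 FPKM. As OHP1 was tested only through its fl3 level, its rise carries no weight. A gene is said to have risen or fallen when its adjusted p from limma was under 0.05, from a fit over all tested genes. By that rule 23.8% of tested genes fell and 43.5% rose, so a call alone was common in this comparison. A called log2 fold change of -1 or lower was seen in 4.16% of tested genes and in 3 of the 8 models. The median log2 fold change was -0.48 over the 8 models and 0.14 over all tested genes. In 7 of the 8 models no fl3 library overlapped a WT library, which was also the case for 71.7% of tested genes.

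Scaling moved the background. Median-of-ratios scaling, which sets the typical gene to no change, gave 33.3% of tested genes as fallen and 33.8% as risen, with 5 models lower and 1 (OHP1) higher. Quantile normalization, which gives every library the same distribution of values, gave 34.4% fallen and 32.1% risen, with 5 models lower and 0 called higher (0 also at an unadjusted p under 0.05 in that limma fit). The same 5 models fell under each scaling.

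**Figure D1:**
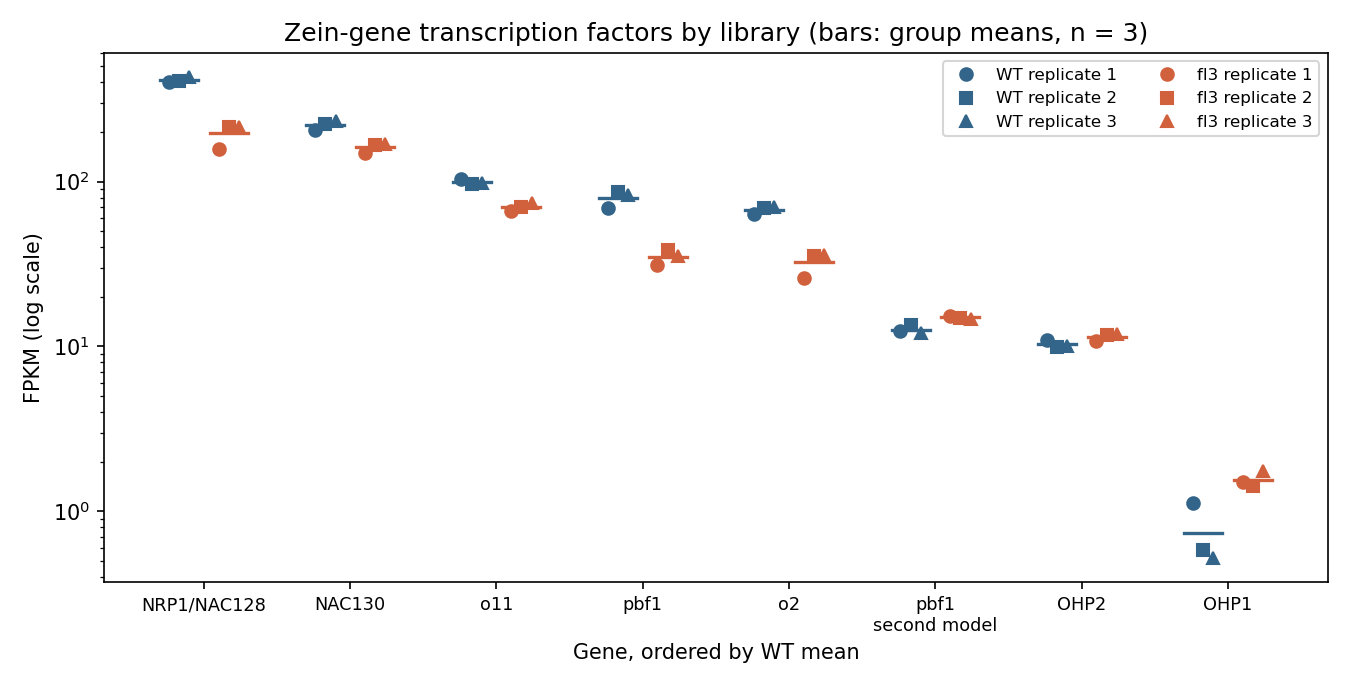
FPKM of each model (log axis) in the 3 WT libraries (blue) and the 3 fl3 libraries (orange), with symbols for the replicate number and bars for the group means. NRP1/NAC128 lies highest in both genotypes and OHP1 lowest, and the genotypes overlap for OHP2.

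Transcripts of the mutated gene floury3 (GRMZM2G006585) were 2260 ± 164 FPKM in WT and 3158 ± 67.3 FPKM in fl3 (SD, n = 3), so the transcript was not lost in the mutant. Since the allele is not stated, these levels cannot check the labels. FPKM summed to between 465741 and 480602 per library and reads per library are not known, so no counting error is given. Of 25 tested endosperm markers (zein genes, sh2 and bt2) 24 fell, against 23.8% of all tested genes. The zein genes z1C1_1, z1C1_6 and z1C1_12 among them were tested only through their WT level. Of all tested genes 43.5% rose, and the marker counts that follow were not tested against this share. Of 6 tested basal transfer layer markers 3 rose, with summed levels of 1486 to 2205 FPKM in WT and 1845 to 3496 FPKM in fl3. Of 6 tested genes matched to markers of the embryo-surrounding region 5 rose and 1 fell, the latter an ae1 entry that also carries the name of a starch branching enzyme. Embryo markers were 2 up of 4 tested, 1 of them matched through a symbol it shares with a hemoglobin gene (sums of 152 to 169 FPKM in WT and 230 to 261 FPKM in fl3). Aleurone markers were 2 up of 3 tested (166 to 182 FPKM in WT and 241 to 254 FPKM in fl3). Both matched genes of green maternal tissue were at or near 0, with summed levels of at most 0.0678 FPKM. The part of these differences in the results on the factors was not tested, and in bulk tissue fewer expressing cells and less RNA per cell cannot be told apart.

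The upstream factor o11 was measured at 104, 96.6 and 97.8 FPKM in WT replicates 1 to 3 and at 66.2, 69.6 and 74.0 FPKM in fl3 replicates 1 to 3. Every fl3 library lay below every WT library, and the spread within a genotype was narrow, at 4.05% of the mean in WT and 5.54% in fl3. The group means were 99.5 ± 4.03 and 69.9 ± 3.88 FPKM (SD, n = 3). O11 thus fell by a log2 fold change of -0.50 (SE 0.06, 95% confidence interval -0.64 to -0.36, limma adjusted p = 0.000113). That fall was deeper than the change of 88.0% of tested genes.

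The bZIP activator o2 had 63.2, 68.8 and 69.9 FPKM in the WT libraries and 25.9, 35.6 and 36.0 FPKM in the fl3 libraries. The genotypes were well apart, and fl3 replicate 1 was the lowest of all. Its log2 fold change was -1.04 (SE 0.12, 95% confidence interval -1.31 to -0.77, limma adjusted p = 8.07e-05), with only 3.88% of tested genes lower. Without fl3 replicate 1 the log2 fold change was -0.89 and still called. By rank, which no scaling of a library changes, o2 stood between 1123rd and 1298th highest of 17272 tested genes in WT and between 2546th and 3562nd in fl3.

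Its partner genes did not fall. OHP2 was at 10.95, 9.89 and 10.0 FPKM in WT and at 10.8, 11.7 and 11.9 FPKM in fl3. The genotypes overlapped, since WT replicate 1 lay above fl3 replicate 1. The log2 fold change of OHP2 was 0.14 (95% confidence interval -0.01 to 0.30, limma adjusted p = 0.0947), close to the median of all tested genes, and it turned to -0.01 under each of the other scalings shown above.

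OHP1 was the lowest of the 8, at 1.12, 0.579 and 0.523 FPKM in WT and 1.50, 1.41 and 1.74 FPKM in fl3. WT replicate 1 stood above the other WT libraries and nearest to fl3, although the genotypes did not overlap. OHP1 rose by a log2 fold change of 0.57 (SE 0.14, limma adjusted p = 0.00703), a 2.10-fold difference of means. Its WT mean of 0.740 FPKM was below the limit of 1 FPKM, so it entered the test only through its fl3 level. The rise therefore carries no weight, and it did not pass under quantile normalization (log2 fold change 0.29, limma adjusted p = 0.0899). OHP1 and OHP2 are close homologs, and reads divided between them are uncertain.

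In WT, o2 transcripts exceeded the sum of both partner genes by 5.23, 6.58 and 6.63 times, and in fl3 by 2.10, 2.71 and 2.64 times. This ratio is taken within a library and therefore does not depend on a factor by which the whole library is multiplied. Quantile normalization, which is no such factor, moved its log2 difference from -1.31 to -1.18. The means of the ratio were 6.15 ± 0.791 and 2.48 ± 0.336 (SD, n = 3), a 2.47-fold difference with no overlap between genotypes. An exact two-sided permutation test returned p = 0.1, which is the lowest value 6 libraries in 2 equal groups permit, and 0.133 after Benjamini-Hochberg adjustment over the 4 ratios compared.

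**Figure D2:**
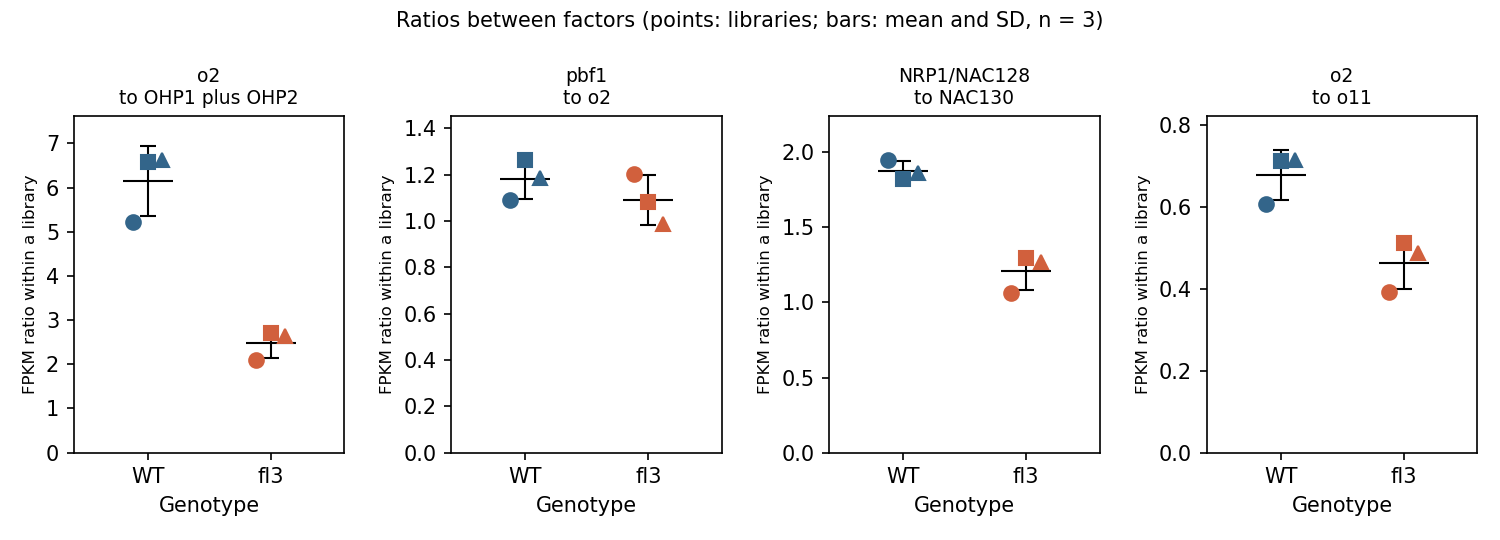
Ratio of FPKM within each library (vertical axes from 0) for 4 pairs of factors, with WT in blue, fl3 in orange, symbols for the replicate number as circle, square and triangle for 1 to 3, and black bars for mean and SD. The genotypes are apart for o2 over OHP1 plus OHP2, NRP1/NAC128 over NAC130 and o2 over o11, and overlap for pbf1 over o2.

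The prolamin-box factor pbf1 had 68.9, 86.9 and 82.8 FPKM in WT and 31.1, 38.4 and 35.5 FPKM in fl3. Even the highest fl3 library lay far under the lowest WT library. The group means were 79.5 ± 9.43 and 35.0 ± 3.70 FPKM (SD, n = 3), 2.27-fold apart. With a log2 fold change of -1.16 (SE 0.10, 95% confidence interval -1.40 to -0.92, limma adjusted p = 2.00e-05) it was the deepest fall among the 8. Only 3.21% of tested genes had a lower log2 fold change.

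The second model placed at pbf1, GRMZM2G146267, did not follow it. It stood at 12.4, 13.5 and 12.1 FPKM in WT and at 15.3, 14.9 and 14.7 FPKM in fl3, so its fl3 libraries were slightly higher, without overlap. It rose by a log2 fold change of 0.23 (SE 0.06, limma adjusted p = 0.0118), which did not pass under median-of-ratios scaling (0.07, limma adjusted p = 0.30) or quantile normalization (0.10, limma adjusted p = 0.173). The reference gene table lists both identifiers under 2 overlapping neighbouring genes, PBF and one without a name, and use of strand in counting is not stated. Which of these genes the reads of GRMZM2G146267 came from therefore cannot be told apart.

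No difference between genotypes was resolved in the ratio of pbf1 to o2. It was 1.09, 1.26 and 1.18 in WT and 1.20, 1.08 and 0.988 in fl3, with overlapping ranges. The means were 1.18 ± 0.0861 and 1.09 ± 0.107 (SD, n = 3; exact permutation p = 0.4). Without 1 library at a time the log2 difference of this ratio ran from -0.19 to -0.05. The ratio of o2 to o11 had separate ranges, at 0.607, 0.712 and 0.714 in WT and 0.391, 0.511 and 0.486 in fl3. Its exact permutation p was 0.1, the smallest possible, and 0.133 after Benjamini-Hochberg adjustment.

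Of the NAC factors, NRP1/NAC128, an imprinted gene expressed from the maternal copy in endosperm, was the most abundant of the 8 models. It had 401, 409 and 431 FPKM in WT and 158, 215 and 214 FPKM in fl3. Again fl3 replicate 1 was the lowest, and no fl3 library came near the WT range. Its log2 fold change was -1.09 (SE 0.12, 95% confidence interval -1.35 to -0.82, limma adjusted p = 5.39e-05), and -0.94 without fl3 replicate 1, still called. It ranked between 108th and 131st of the tested genes in WT and between 300th and 437th in fl3.

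NAC130 had 206, 224 and 232 FPKM in WT and 148, 166 and 169 FPKM in fl3. The groups did not overlap, but they were closer than for its relative. NAC130 fell by a log2 fold change of -0.45 (SE 0.07, 95% confidence interval -0.62 to -0.29, limma adjusted p = 0.000594). NRP1/NAC128 exceeded NAC130 by 1.95, 1.82 and 1.86 times in WT and by 1.06, 1.30 and 1.27 times in fl3. The means of this ratio were 1.88 ± 0.0651 and 1.21 ± 0.126 (SD, n = 3), and the genotypes again did not overlap. The exact permutation p was 0.1, the smallest possible, and 0.133 after Benjamini-Hochberg adjustment. The levels of the NAC genes were closest to each other in fl3 replicate 1.

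In WT the levels per gene length ran in the order NRP1/NAC128, NAC130, o11, pbf1, o2, GRMZM2G146267, OHP2 and OHP1. Ranges of neighbours in this order were separate in WT except for pbf1 and o2. The order of the group means was the same in fl3, where pbf1 and o2 also overlapped. In fl3 the lowest library of NRP1/NAC128 lay under the highest library of NAC130, although within each library NRP1/NAC128 was the higher. The FPKM of the 8 models summed to between 867 and 935 in WT and between 457 and 557 in fl3.

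**Figure D3:**
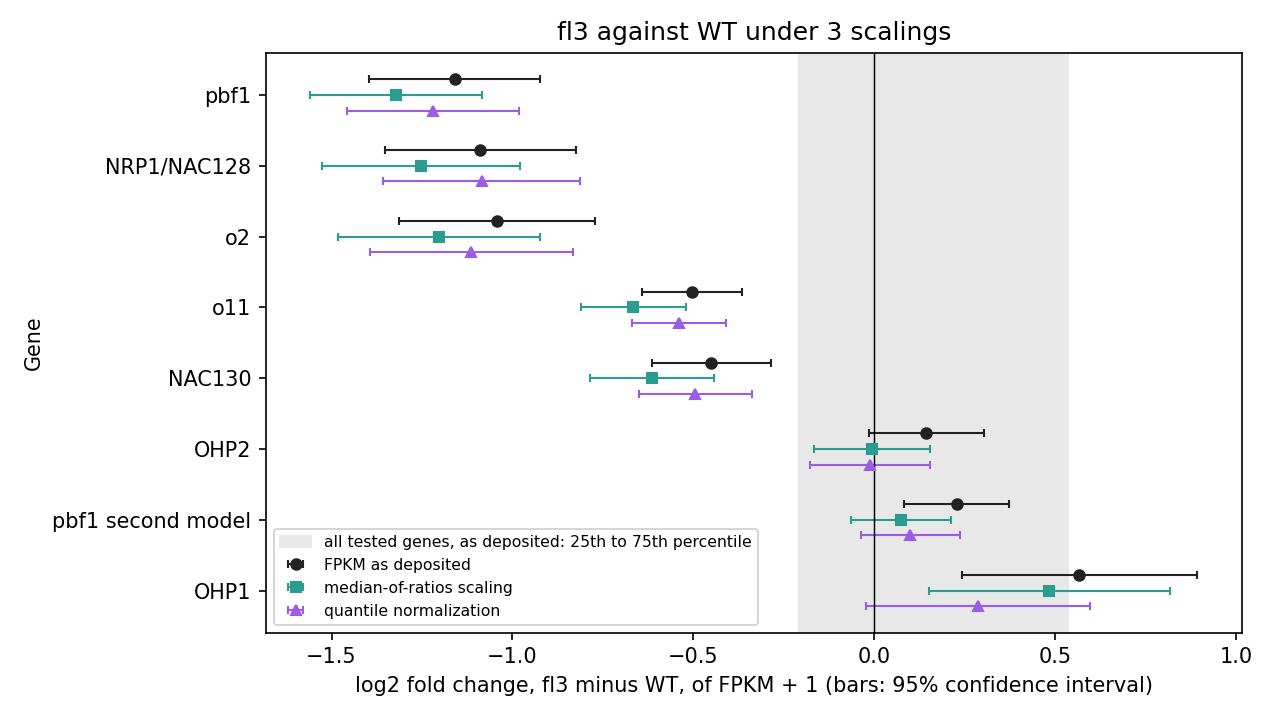
Log2 fold change (fl3 minus WT) of FPKM + 1 for each model with its 95% confidence interval, on the FPKM as deposited (black), under median-of-ratios scaling (green) and under quantile normalization (purple), over the 25th to 75th percentile of all tested genes (grey, -0.21 to 0.54). The grey band is that of the FPKM as deposited. The 5 falling models lie left of it under each scaling, and OHP2 changes sign. Under quantile normalization the 25th percentile of all tested genes was -0.37, and the interval of NAC130 (-0.65 to -0.34) reaches past it.

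Single libraries ranked alike for several models. Each of the 5 falling models was lowest in fl3 replicate 1, and 4 of them were lowest in WT replicate 1 within WT, the exception being o11. Summed zein transcripts were likewise lowest in these libraries, at 33387 FPKM in WT replicate 1 and 11918 FPKM in fl3 replicate 1. The calls for all 5 held without either library.

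By library profile, o2 and NRP1/NAC128 were the most alike of the 28 pairs among the 8 models. Likeness was measured as the root mean square difference of log2(FPKM + 1), each gene centred on its own mean over the 6 libraries, and it was 0.036 for this pair. It takes in the difference between genotypes as well as the spread within them. The pair NAC130 and o11 followed at 0.090. The pairs o2 with pbf1 and pbf1 with NRP1/NAC128 were at 0.115 and 0.119.

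Among 1777 tested genes with a name, bZip112 (GRMZM2G103647, 0.063) and MYB59 (GRMZM2G093789, 0.066) lay closest to o2. The same genes lay closest to NRP1/NAC128, MYB59 at 0.048 and bZip112 at 0.069. Transcripts of bZip112 averaged 9.51 FPKM in WT and 4.30 FPKM in fl3, and those of MYB59 16.0 and 6.98 FPKM. Closest to pbf1 was lkrsdh1 (GRMZM2G181362, 0.055), which encodes the bifunctional enzyme of lysine breakdown, followed by opr5 (GRMZM2G087192, 0.099). The genes nearest to NAC130 were ARC6 (GRMZM2G060567, 0.035) and TPS2 (GRMZM2G123277, 0.040), and those nearest to o11 were aprl4 (GRMZM2G159535, 0.039) and NRH2 (GRMZM2G085960, 0.040). OHP1 was nearest to adh1 (GRMZM2G442658, 0.067) and sca1 (GRMZM2G332976, 0.084), and GRMZM2G146267 to spp1 (GRMZM2G055489, 0.027) and serk2 (GRMZM2G115420, 0.027).

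Known targets were read beside their factors. Of 25 zein genes found by symbol 23 were tested, 22 fell and 1 did not pass, with a median log2 fold change of -2.71. Over all tested genes 23.8% fell. The zein genes z1C1_1, z1C1_6 and z1C1_12 had fl3 means under 1 FPKM and were tested only through their WT level. Their falls carry no weight in this count. Transcripts of z1C zeins, the alpha-zein subfamily most closely tied to O2, summed to 3801, 4665 and 5293 FPKM in WT and to 109, 183 and 217 FPKM in fl3. The fold of their means was 27.0, against 2.07 for o2 itself. For each FPKM of o2 there were 67.9 ± 7.78 FPKM of z1C transcripts in WT and 5.14 ± 0.917 FPKM in fl3 (SD, n = 3). For all named zeins together the same quotient was 576 ± 41.4 in WT and 457 ± 15.8 in fl3, so it differed far less. A large part of that sum was the gamma-zein gz27, with a mean of 14122 of 38882 FPKM in WT and 8630 of 14832 FPKM in fl3. The quotient of all zeins therefore does not describe the alpha-zeins. The z1A zeins, also alpha-zeins, summed to 9093 ± 1648 FPKM in WT and 1113 ± 340 FPKM in fl3 (SD, n = 3). Their fold of means was 8.17, so a fall beyond that of o2 was not particular to z1C zeins. Alpha-zeins are near-identical copies, and the level of a single copy is uncertain.

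The gamma-zein gz27 (GRMZM2G138727), whose promoter is a textbook site of PBF1 and the OHPs, fell by a log2 fold change of -0.72 (limma adjusted p = 0.00391). For each FPKM of pbf1 there were 183, 176 and 174 FPKM of gz27 in WT and 230.5, 230.1 and 278 FPKM in fl3. In contrast to the z1C quotient, this one was higher in every fl3 library. The smallest zein change was that of the delta-zein dzs18 (GRMZM2G100018), at 504 ± 36.9 and 624 ± 145 FPKM (log2 fold change 0.28, limma adjusted p = 0.131).

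Of 6 single targets, gz16 among them, which is also counted with the zeins, 5 fell and 1 did not pass, while 23.8% of all tested genes fell. Pyruvate orthophosphate dikinase, listed at GRMZM2G306345 and a target of O2, fell from 779 ± 62.4 to 274 ± 25.5 FPKM (SD, n = 3). The O2 target lkrsdh1 fell from 25.1 ± 2.68 to 11.1 ± 1.02 FPKM. A further classic O2 target, the ribosome-inactivating protein gene b-32 (GRMZM2G063536), stood at 95.9 ± 27.1 FPKM in WT and 88.9 ± 23.5 FPKM in fl3 and did not pass (log2 fold change -0.10, SE 0.25, limma adjusted p = 0.728). Its 95% confidence interval ran from -0.67 to 0.46, which leaves out a fall of the size of that of o2 but not smaller changes in either direction. By replicate number b-32 had 65.0, 115 and 107 FPKM in WT and 62.0, 106 and 99.2 FPKM in fl3. The spread thus ran alike in both genotypes, and the interval, which ignores the numbers, takes it in. The NAC targets bt2 (GRMZM2G068506, a subunit of ADP-glucose pyrophosphorylase) and gz16 (GRMZM2G060429, a gamma-zein) fell by log2 fold changes of -0.91 and -0.83, and sh2 (GRMZM2G429899), the other subunit gene of that enzyme, fell by -0.66. Under quantile normalization 4 of the 6 fell, beside 34.4% of all tested genes.

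**Figure D4:**
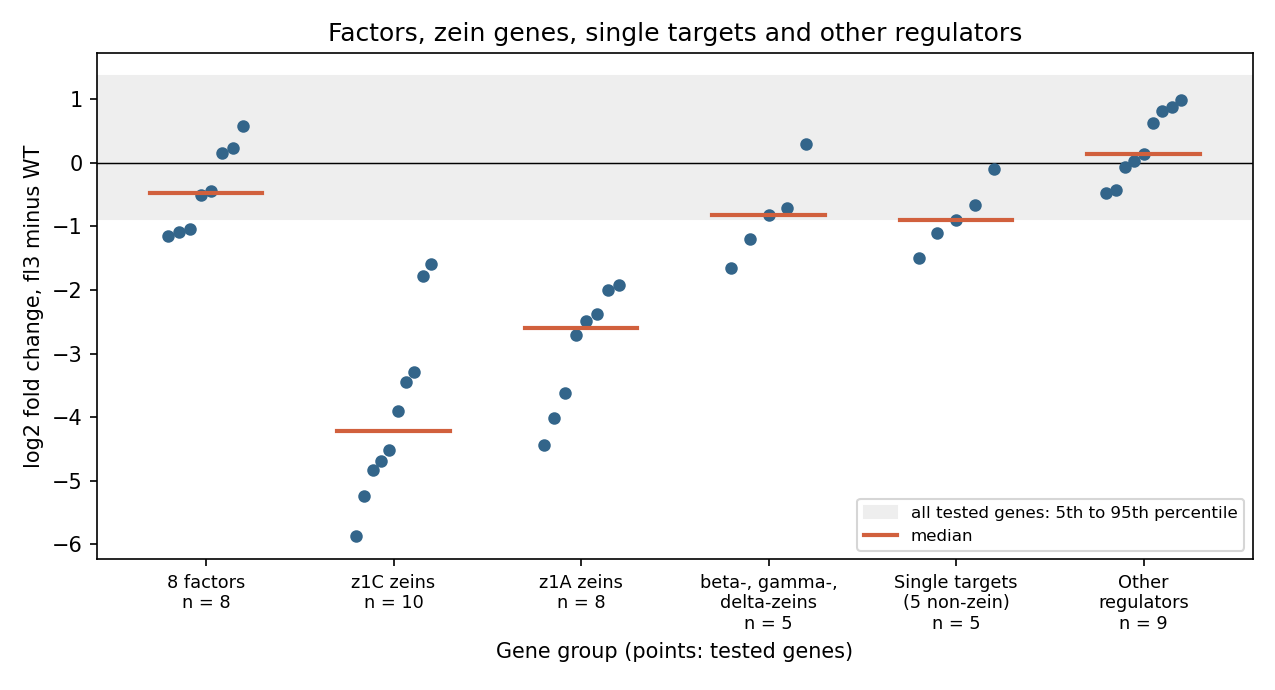
Log2 fold change (fl3 minus WT) of FPKM + 1 for each tested gene of the 8 factors, the zein subfamilies, the 5 single targets other than gz16 and the other regulators, with group medians in orange and the 5th to 95th percentile of all tested genes in grey (-0.89 to 1.36). The z1C and z1A zeins lie below the grey band, below every factor, and the other regulators lie within it on both sides of 0.

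Other listed regulators went both ways. Of 9 tested, 4 rose, 2 fell and 3 did not pass (4, 3 and 2 under median-of-ratios scaling), and the median log2 fold change was 0.13. These counts are near the shares over all tested genes, 43.5% risen and 23.8% fallen, and so are no result about the list. The aleurone regulator nkd1 (GRMZM2G129261) rose from 113 ± 6.35 FPKM in WT to 175 ± 5.84 FPKM in fl3 (SD, n = 3), with a log2 fold change of 0.63 (limma adjusted p = 3.17e-05), while its duplicate nkd2 (GRMZM5G884137) was at 57.9 ± 2.63 and 58.9 ± 3.28 FPKM. The B3 factor vp1 (GRMZM2G133398), best known from embryo and aleurone maturation, rose from 1.56 ± 0.153 to 3.70 ± 0.579 FPKM. The gene m20 (GRMZM2G059102) rose from 1.53 ± 0.444 to 3.95 ± 0.0974 FPKM. It had been listed by identifier as MADS47, a name that the reference table gives to another identifier, GRMZM2G099577, so its place among these regulators is uncertain.

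Coactivators that act with O2 on chromatin moved in both directions. The histone acetyltransferase gcn5 (GRMZM2G046021) fell from 13.8 ± 1.12 to 9.95 ± 1.25 FPKM (SD, n = 3), and one gene listed as ada2 (GRMZM2G177974) fell from 15.0 ± 1.18 to 10.5 ± 0.216 FPKM. A second identifier listed under the same ada2 gene, GRMZM5G815323, rose from 4.78 ± 0.607 to 9.09 ± 0.378 FPKM, so reads divided between these models are uncertain. The Dof gene DOF36 (GRMZM2G137502), of the protein family of PBF1, was at 53.5 ± 1.28 FPKM in WT and 51.0 ± 3.81 FPKM in fl3 (log2 fold change -0.07, limma adjusted p = 0.347), and it passed as lower under median-of-ratios scaling (-0.23). The regulator listed as bZIP22 (GRMZM2G043600), which the reference table leaves without a name, did not pass at 22.0 ± 1.17 and 24.1 ± 1.10 FPKM. The gene dof3 (GRMZM2G179069) was near 0 and not tested.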

How the data were processed

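RNA of 3 WT and 3 fl3 endosperm samples was sequenced, per the labels on an Illumina HiSeq instrument. The authors deposited 1 table of FPKM values per library, and the submitters' processing notes name FastQC, TopHat, Bowtie2 and the build B73 RefGen_v3. Which program and annotation gave the FPKM, and whether strand was used, is not given in the sources used here. Low values did not fall into steps of whole reads: at most 5.81% of low genes had the same ratio between libraries within 1%, so no count test was run. Gene names were looked up in the RefSeq table for Zm-B73-REFERENCE-NAM-5.0, another build, used for names and neighbours only. That table names NAC130 as nac4 and Asn1, while the name NAC130 is the one in common use.

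Genes averaging 1 FPKM or more over all 6 libraries were tested as log2(FPKM + 1) with limma 3.58.1 in R 4.3.3 (eBayes with trend, genotype as the only term, two-sided, Benjamini-Hochberg over 17272 genes). Fold changes are fl3 minus WT on that scale, which understates changes of low genes. The fit was tested on simulated data. Ratios within a library were tested by exact permutation, two-sided (SciPy 1.17.1). The genes named are the 8 models, the called and other members of the listed regulators, the extreme members of the target lists, and for each called model the 2 named genes with the closest profile. Members, lists and tests were chosen with earlier results of these data known. The regulators abi19, bzip29 and gras11 of the list matched no identifier by symbol. Over all tested genes same-numbered libraries did not deviate together (correlations of -0.15, 0.07 and -0.02). Single genes can still run alike by number, so whether the numbers pair the libraries is not settled, and the main fit ignores them.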

Additional observations from a re-analysis of the deposited data

How the results depend on the processing

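The falls of o2, pbf1, NRP1/NAC128, NAC130 and o11 were called in all 16 alternatives tried (another pseudocount, 2 other filters, 4 scalings, 2 variance models, the replicate block and 6 libraries left out), with log2 fold changes from -1.20 to -0.89 for o2, -1.32 to -1.08 for pbf1, -1.25 to -0.94 for NRP1/NAC128, -0.61 to -0.39 for NAC130 and -0.67 to -0.47 for o11. Calls of higher models changed: 1 was left with a filter at 5 FPKM, where OHP1 is not tested, 1 with median-of-ratios scaling and 0 after quantile normalization. GRMZM2G146267 went to 0.074 and 0.099 under these scalings, and OHP1 to 0.29 under quantile normalization. OHP2 turned to -0.0068 and -0.012 under the same scalings and passed at 0.17 with library weights (limma adjusted p = 0.0392). The cause of these changes was not tested. With the replicate block 5 models were called lower and 2 higher, as without it, so it changed no call. The pseudocount of 0.1 gave OHP1 a log2 fold change of 1.04. The 4 ratios kept their direction under quantile normalization and without each library. Of all called genes 64.7% were higher, and 50.4% under median-of-ratios scaling. With the filter at 5 FPKM 4771 of 11264 tested genes rose, against 7519 of 17272, nearly the same share. Depth is unknown, so counting error could not be separated from other spread, which bears most on OHP1.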

Other observations

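Named relatives of the factors, looked up by family symbol after the data had been seen, moved both ways. Over all tested genes 43.5% rose and 23.8% fell, and no family was tested against these shares. Of 22 other tested bZIP genes 11 rose, 6 fell and 5 did not pass, with log2 fold changes from -0.99 to 0.82 and no gene above a mean of 25.9 FPKM. Under median-of-ratios scaling 11 of them rose and 7 fell, and after quantile normalization 11 and 9. The lowest of these changes was that of bZip112 (GRMZM2G103647), the named gene nearest in profile to o2. The bZIP gene bZIP111 (GRMZM2G073427), counted as risen, went from 0.679 to 1.79 FPKM. It was tested only through its fl3 level, so its rise carries no weight. Of 12 other tested NAC genes 4 rose, 1 fell and 7 did not pass, but 4 rose and 3 fell under median-of-ratios scaling and 3 rose and 4 fell after quantile normalization. The one that fell, NAC12 (GRMZM2G125777), went from 53.1 to 41.8 FPKM and was the most abundant of them, and 2 NAC genes, NAC5 (GRMZM2G162739) and another identifier listed as NAC12 (GRMZM2G018436), rose from 0.189 to 1.90 FPKM and from 0.672 to 2.50 FPKM. These 2, and NAC1 (GRMZM2G336533, from 0.474 to 1.74 FPKM), had WT means under 1 FPKM and were tested only through their fl3 level, so their rises carry no weight. Of 12 other tested bHLH genes 5 rose, 3 fell and 4 did not pass (4, 4 and 4 under median-of-ratios scaling, 4, 5 and 3 after quantile normalization), and bHLH39 (GRMZM2G162382) rose from 6.90 to 16.2 FPKM. None of these relatives was called at a log2 fold change of -1 or lower on the FPKM as deposited, although 1 bZIP gene was under median-of-ratios scaling, and 2 bZIP genes and 1 bHLH gene were under quantile normalization. These family lists hold named genes only, and whether the factors differ from their families was not tested.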
